A study of Mus musculus with 28 samples.

Results

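The early response to leptin was read from 7 of the 28 RNA-seq libraries of the series. They hold RNA bound to eGFP-tagged ribosomes (the bead fraction) of wild-type mouse hypothalami taken 3 h after an injection of leptin (3 libraries, m24, f2 and f4) or vehicle (4 libraries, m1, m3, f1 and f3). The members were chosen by their labels alone, that is by fraction, genotype, time and treatment. In these reporter mice the ribosomal protein L10a, fused to eGFP, marks the cells in which LepRb, the long form of the leptin receptor, is expressed, so an antibody to GFP pulls down ribosomes of LepRb cells with the mRNA they hold. All mice, the vehicle mice included, carried this reporter, were 10 to 13 weeks old, and had their food taken away when the lights came on, just before the injection. Leptin was given as metreleptin, an analog of human leptin, at 5 mg per kg intraperitoneally. The vehicle is called PBS in the sample labels and saline in the protocol. Each of the 7 lysates also gave a library of the RNA left in the supernatant (the depleted fraction). Groups at 10 h were wild-type mice (1 vehicle and 3 leptin bead libraries) and reporter mice homozygous for Lep ob, which make no functional leptin (2 vehicle and 1 leptin bead libraries). They served for a comparison of times, and the main fits also used them to estimate the spread of each gene. The labels do not say whether 1 lysate came from 1 mouse or from several. The unit of each test was therefore the lysate, and p-values rest on the spread between lysates within all groups fitted.

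LepRb belongs to the cytokine receptor family and signals through the kinase JAK2, which phosphorylates the receptor and the transcription factor STAT3. STAT3 then enters the nucleus and turns on genes that include Socs3, whose product binds the receptor complex and damps the signal. In the hypothalamus, LepRb neurons of the arcuate, ventromedial, dorsomedial and other nuclei restrain feeding and raise energy use, and hunger-promoting Agrp/Npy neurons and satiety-promoting Pomc neurons are among them. Ribosome-bound RNA shows which transcripts are held by the translation machinery of the tagged cells. In such bulk RNA, fewer cells of a type and less RNA per cell cannot be told apart.

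Total counts were 28879062 to 35487170 per bead library. Libraries of 1 arm correlated at r = 0.984 to 0.995 across genes on the log scale. Lepr itself was at 6.51 to 11.0 CPM (counts scaled to a common library size, with TMM factors) in the 7 bead libraries and was 5.41-fold higher in vehicle beads than in the depleted RNA of the same lysates (log2 2.44, SE 0.15, n = 4 lysates, edgeR quasi-likelihood test, adjusted p = 1.99e-08). That comparison called 10386 of 19682 genes (52.8%), 5558 higher and 4828 lower in beads, or 3590 and 6682 when libraries were scaled by their totals, which puts the median log2 ratio of all genes at -0.15 in place of 0.01. The m and f of the titles matched the sex-linked transcripts Ddx3y and Xist in all 7 libraries. Both sexes were thus in each arm, unevenly (m1, m3, f1 and f3 against m24, f2 and f4), and the main fit held no term for sex. A pair of libraries stood apart. Gh and Prl, hormone genes of the pituitary gland, were at 57.5 and 9.80 CPM in vehicle m3 and at 538 and 753 CPM in leptin f2, against at most 0.613 and 0.642 CPM in the other 5 bead libraries. The mean log2(CPM + 1) of 36 markers of astrocytes, oligodendrocytes and microglia varied between libraries, with overlap of the arms. It was 4.81, 4.24, 5.29 and 4.60 in vehicle m1, m3, f1 and f3 and 4.11, 4.75 and 4.29 in leptin m24, f2 and f4. Results are therefore given with all 7 libraries and, where that changes a call, without m3 and f2.

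The sequences in front of the genes that passed the test show where letters of a STAT site occur. The windows run from 250 bases before to 50 bases after the annotated start (RefSeq, GRCm38.p6), and are written 5′ to 3′ on the strand of the gene with matches to TTCNNNGAA, the core that STAT3 binds, in capitals. Cish, a feedback inhibitor described below, is added because its window holds a pair of matches.

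Socs3, chr11:117969317-117969616, minus strand: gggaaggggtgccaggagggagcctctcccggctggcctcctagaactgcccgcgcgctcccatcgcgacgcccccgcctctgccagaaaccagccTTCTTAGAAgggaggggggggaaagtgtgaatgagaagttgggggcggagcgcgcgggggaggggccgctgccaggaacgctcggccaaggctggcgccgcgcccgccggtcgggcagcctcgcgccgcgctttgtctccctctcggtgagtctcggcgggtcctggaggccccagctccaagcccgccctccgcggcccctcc

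Etv6, chr6:134035450-134035749, plus strand: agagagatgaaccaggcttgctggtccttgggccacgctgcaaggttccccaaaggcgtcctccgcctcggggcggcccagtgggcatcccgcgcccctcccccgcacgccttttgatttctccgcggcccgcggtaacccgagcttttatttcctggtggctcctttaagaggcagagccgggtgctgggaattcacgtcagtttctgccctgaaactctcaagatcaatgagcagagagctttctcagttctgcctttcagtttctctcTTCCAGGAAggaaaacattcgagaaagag

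Cish, chr9:107296409-107296708, plus strand: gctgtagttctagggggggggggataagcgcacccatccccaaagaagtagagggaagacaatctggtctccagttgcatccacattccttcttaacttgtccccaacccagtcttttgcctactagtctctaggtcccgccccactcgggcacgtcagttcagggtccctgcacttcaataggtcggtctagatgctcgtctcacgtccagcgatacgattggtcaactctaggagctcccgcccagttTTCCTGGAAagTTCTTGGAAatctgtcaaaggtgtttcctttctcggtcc

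Arid5a, chr1:36307483-36307782, plus strand: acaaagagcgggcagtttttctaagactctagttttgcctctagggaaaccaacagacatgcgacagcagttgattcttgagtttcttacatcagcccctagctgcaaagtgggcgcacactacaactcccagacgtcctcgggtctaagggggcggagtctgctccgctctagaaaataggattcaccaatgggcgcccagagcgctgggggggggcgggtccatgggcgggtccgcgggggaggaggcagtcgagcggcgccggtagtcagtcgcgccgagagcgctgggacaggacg

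Atf3, chr1:191183284-191183583, minus strand: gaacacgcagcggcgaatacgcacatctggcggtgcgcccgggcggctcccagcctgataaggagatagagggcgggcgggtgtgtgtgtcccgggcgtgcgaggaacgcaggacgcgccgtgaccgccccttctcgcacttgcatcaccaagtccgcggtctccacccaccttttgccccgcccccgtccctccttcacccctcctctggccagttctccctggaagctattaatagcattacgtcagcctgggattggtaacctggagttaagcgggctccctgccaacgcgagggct

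The match begins 154 bases before the start of Socs3 (TTCTTAGAA) and 21 bases after that of Etv6 (TTCCAGGAA). In Cish the first base of 1 match is the start itself (TTCCTGGAA), and the other begins 11 bases after it (TTCTTGGAA). The windows of Arid5a and Atf3 hold no match. Over all 32851 windows of this length in the table, 8.3% hold TTCNNNGAA on either strand, which reads the same on both. Windows on chromosome 18, where Ptpn2 lies, were left out of the count for feedback genes but not of the shares over all windows. Of the 19 JAK-STAT feedback genes, 11 had a window on other chromosomes, and a match was found in Cish, Ptpre and Socs3. Counted by gene, 2582 of 27025 genes with a window (9.55%) held a match. None of the 4 windows of Arid5a, Etv6, Socs3 and Atf3 holds TGACGTCA (the CRE core, 1.79% of all windows), TGANTCA (AP-1, 7.81%) or TTGCGCAA (C/EBP, 0.183%). A match describes letters, not binding.

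Leptin raised 4 genes in the ribosome-bound RNA of LepRb cells at 3 h and lowered none. Arid5a rose 4.16-fold; its protein binds and stabilizes mRNAs that cytokines induce. Etv6, a transcriptional repressor of the ETS family, rose 2.65-fold. Socs3, the feedback inhibitor of the receptor, rose 4.42-fold. Atf3 rose 4.81-fold and codes for a bZIP factor that stress and cytokines induce. These are 4 of 18212 genes tested (0.022%; edgeR quasi-likelihood test, Benjamini-Hochberg adjusted p under 0.05). At an unadjusted p under 0.05 there were 1363 genes (7.48%), where 911 are expected in both directions together with no true difference. Of the 1363 genes 485 were higher and 878 lower with leptin.

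**Figure D1:**
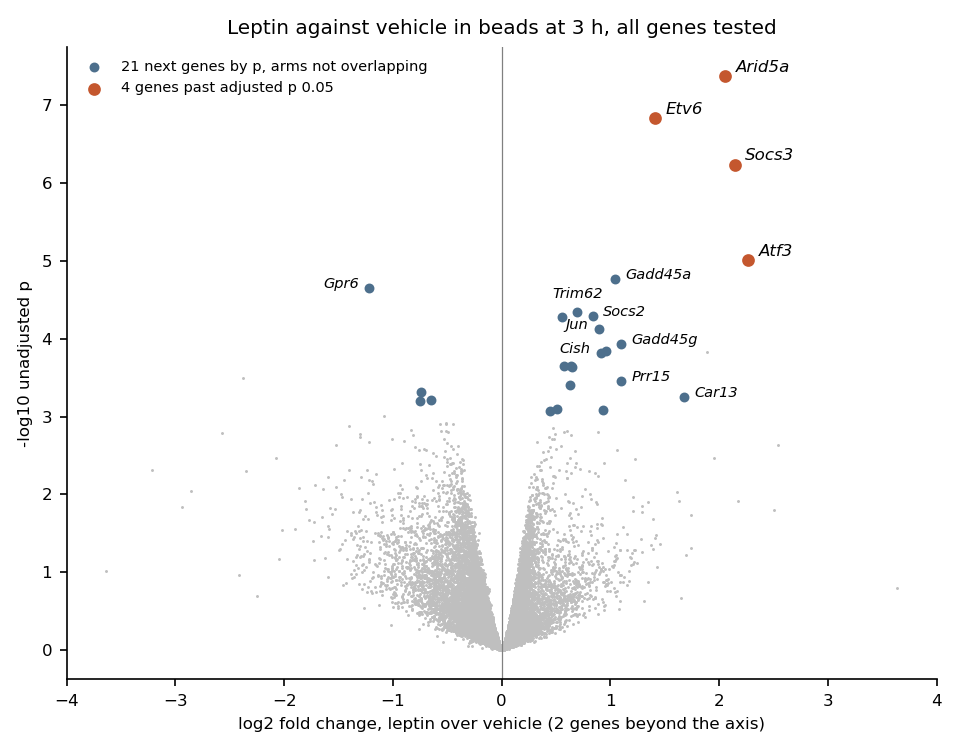
Each point is 1 of 18212 genes, with its log2 fold change (leptin over vehicle, beads, 3 h) on the x axis and the negative log10 of its unadjusted p on the y axis; orange points are the 4 genes past the threshold and blue points the 21 next genes by p whose arms do not overlap. Arid5a, Etv6, Socs3 and Atf3 lie above all blue points, and 17 of the 21 blue points lie on the higher side; 2 genes lie beyond the axis.

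Arid5a (ENSMUSG00000037447; GRCm38 chromosome 1, 36307733 to 36324029, plus strand) was at 9.46, 7.71, 10.6 and 9.76 CPM in vehicle m1, m3, f1 and f3. In leptin m24, f2 and f4 it was at 39.3, 25.2 and 53.4 CPM. All 3 leptin values exceeded all 4 vehicle values (9.38 ± 1.21, SD, n = 4, against 39.3 ± 14.1, n = 3), and the log2 fold change was 2.06 (SE 0.2, adjusted p = 0.000773). Beside Arid5a, the list of regulators of cytokine mRNA stability held 13 further tested genes, 12 of them with a positive log2 fold change and none past the threshold. Arid5b, a relative with the same type of DNA-binding domain, was at 38.7 to 52 CPM in vehicle beads and at 53.7, 62.8 and 59.6 CPM in leptin beads (log2 0.32, unadjusted p = 0.017). Rc3h1, which codes for roquin, a protein that promotes decay of such mRNAs, was at 47.9 to 56.4 and 59.7 to 64.1 CPM (log2 0.24). Zfp36, the decay factor tristetraprolin, was at 1.34 to 2.80 and 1.71 to 3.42 CPM, and its arms overlapped. In 7 of the 14 genes all leptin libraries lay above all vehicle libraries, as they did in 4.02% of all genes tested, and the median log2 fold change was 0.19, against -0.01 over all genes.

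Etv6 (ENSMUSG00000030199; chromosome 6, 134035700 to 134270158, plus strand) was at 13.4, 15.3, 16 and 13.6 CPM in vehicle beads. Leptin beads held 43.3, 28.6 and 44.7 CPM, again with no overlap (log2 1.41, SE 0.151, adjusted p = 0.00136). The library kit does not mark the strand, and some exon bases of Etv6 are shared with Gm17089 on the other strand, so reads of the pair cannot be told apart there. Of the other 17 tested ETS factors none passed. Etv5, a target of growth factor signalling, was at 26.8 to 30.2 CPM in vehicle and 33.4 to 36.7 CPM in leptin beads (log2 0.31, unadjusted p = 0.041). Elf4, which acts in interferon responses, was at 0.716 to 1.38 CPM in vehicle and at 0.302, 0.496 and 0.221 CPM in leptin beads (log2 -1.47, unadjusted p = 0.011). The median of the 18 ETS genes was 0.06.

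**Figure D2:**
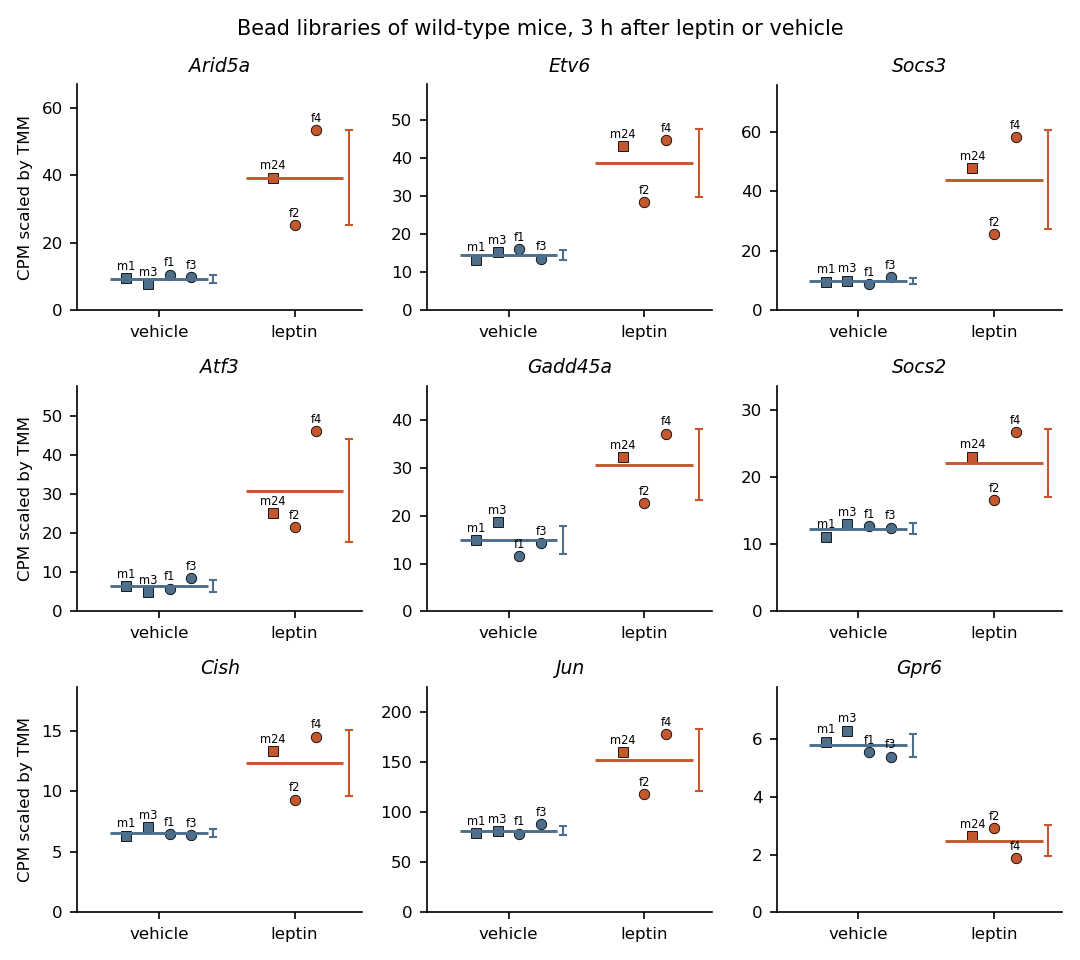
CPM scaled by TMM (y axis, linear from 0) of 9 genes in the 4 vehicle and 3 leptin bead libraries at 3 h; squares are libraries titled m, circles f, horizontal lines arm means and bars 1 SD. In the 8 genes that were higher with leptin, f2 is the lowest of the leptin points, and in Gpr6 all leptin points lie below the vehicle points.

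Socs3 (ENSMUSG00000053113; chromosome 11, 117966079 to 117970047, minus strand) was at 9.61, 9.98, 8.75 and 11.2 CPM in vehicle m1, m3, f1 and f3. It was at 47.8, 25.6 and 58.3 CPM in leptin m24, f2 and f4 (log2 2.14, SE 0.249, adjusted p = 0.00355). The lowest leptin library was thus above the highest vehicle library by more than the whole vehicle range. The other suppressors of cytokine signalling showed smaller differences. Socs2, which acts mainly on growth hormone signalling, was at 11.1, 13, 12.7 and 12.5 CPM in vehicle and at 23.1, 16.6 and 26.7 CPM in leptin beads (log2 0.84, SE 0.149, adjusted p = 0.106). Cish, the STAT5-linked member of the family, was at 6.33, 7.04, 6.48 and 6.35 CPM against 13.3, 9.30 and 14.5 CPM (log2 0.91, SE 0.18, adjusted p = 0.199). Part of Cish is shared with Gm17040 and Gm17041 on the other strand. Socs1, an inhibitor of JAK kinases, was at 3.38 to 4.90 CPM against 6.80, 5.68 and 7.92 CPM (log2 0.66, adjusted p = 0.656). Arms did not overlap in any of these 4 SOCS family genes. The phosphatase genes Ptpn1 (PTP1B, which acts on JAK2) and Ptpn2 (TC-PTP, which acts on STAT3) had no overlap either. Ptpn1 was at 36.9 to 42.3 CPM in vehicle and 46.9 to 51.5 CPM in leptin beads, and Ptpn2 at 16.2 to 16.8 CPM and 18.1 to 25.8 CPM. Over the 19 feedback genes tested, 1 rose, none fell, and in 8 all leptin libraries lay above all vehicle libraries. In 2 of them all lay below, as they did in 4.12% of all genes. Their median log2 fold change was 0.09, and without m3 and f2 3 of them passed, all higher.

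The receptor and the kinase and STAT genes moved little by comparison. Lepr was at 8, 11, 8.37 and 10.4 CPM in vehicle beads and at 10.8, 6.51 and 9.46 CPM in leptin beads (log2 -0.08, 95% interval -0.47 to 0.31). Its arms overlapped, and the values cover all isoforms of the gene. Jak2 was at 44.3 to 49.1 CPM in vehicle and at 65.7, 54 and 69.2 CPM in leptin beads (log2 0.41, SE 0.118, adjusted p = 0.656). Stat3 was at 168, 210, 165 and 193 CPM against 252, 223 and 273 CPM (log2 0.43, SE 0.114, adjusted p = 0.656), and some of its exon bases are shared with Stat5a on the other strand. Jak1, the kinase of most gp130 receptors, was at 168 to 200 CPM in vehicle and 212 to 233 CPM in leptin beads (log2 0.24). Arms did not overlap in Jak2, Stat3 and Jak1. None of the 21 genes of this list passed. With an unadjusted p under 0.05 there were 4 (19.0%), all higher, against 7.48% of all genes tested, and the median was 0.03.

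Atf3 (ENSMUSG00000026628; chromosome 1, 191170296 to 191218039, minus strand) was at 6.44, 4.84, 5.80 and 8.45 CPM in vehicle m1, m3, f1 and f3. It was at 25.1, 21.6 and 46.1 CPM in leptin m24, f2 and f4 (log2 2.27, SE 0.326, adjusted p = 0.0453). The fold was the largest of the 4 and so was its SE, while the SD within the leptin arm, 13.3 CPM, was below those of Socs3 (16.7 CPM) and Arid5a (14.1 CPM). Its call was the least stable: over 17 alternative analyses the log2 fold change stayed between 1.89 and 2.47, and the adjusted p passed 0.05 in 9 of them and reached 0.24 without vehicle f1. Atf3 belongs to the AP-1, ATF and C/EBP group of bZIP transcription factors, which dimerize with one another. Of the 27 genes of that list 1 rose and none fell, with a median of 0.14. An unadjusted p under 0.05 was found in 8 (29.6%), all of them higher, against 7.48% of all genes tested. Jun, the core AP-1 subunit, was at 79.2, 80.9, 78.5 and 88.3 CPM in vehicle and at 160, 118 and 178 CPM in leptin beads (log2 0.89, SE 0.164, adjusted p = 0.136). It shares exon bases with the antisense gene Junos. Fosl2, a FOS-related partner of JUN, was at 14 to 24.6 CPM against 35.9, 28 and 41.5 CPM (log2 0.81, adjusted p = 0.656). Fos was at 19.1, 20.8, 21.4 and 37.1 CPM against 58.7, 26.4 and 38.1 CPM, so that vehicle f3 overlapped with leptin f2 (log2 0.74, SE 0.354). Junb overlapped in the same pair of libraries, with 65.4 CPM in f3 and 60.4 CPM in f2. Batf, a bZIP factor of immune cells, was barely read at 0 to 0.149 CPM in vehicle and 0.155 to 0.402 CPM in leptin beads.

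Genes that neuronal firing turns on had values on both sides of 0. Of 29 activity-dependent early genes 12 had a positive and 17 a negative log2 fold change, the median was -0.05, and none passed with all libraries. The unadjusted p was under 0.05 in 5 of them (17.2%), all higher, against 7.48% of all genes tested. Ier3, an early gene of survival signalling, was at 13.3 to 16 CPM in vehicle and at 23.7, 16.1 and 26.2 CPM in leptin beads (log2 0.63). Klf6, a zinc finger factor, was at 46.9 to 54.5 CPM against 63.6 to 75.2 CPM (log2 0.42). Homer1, a postsynaptic scaffold gene, was at 41.7 to 47.8 CPM against 52.5 to 59 CPM (log2 0.32). Crem, the cAMP-responsive modulator, was at 31.8, 44.3, 26.7 and 30.5 CPM against 52.6, 32.8 and 47.9 CPM and overlapped through vehicle m3 (log2 0.41). It passed without m3 and f2 (log2 0.76, adjusted p = 0.0484).

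Of 18 MAP kinase feedback genes 8 were positive (median -0.02), and 4 (22.2%) had an unadjusted p under 0.05, all higher. Over all genes tested that share was 7.48%. Of 16 acute-phase, serpin and Timp genes 6 were positive (median -0.03), and 2 higher and 1 lower (18.8% together) had an unadjusted p under 0.05. Serpina3n, the main acute-phase serpin of brain, was at 173, 321, 167 and 166 CPM in vehicle and at 238, 148 and 222 CPM in leptin beads (log2 -0.03, and 0.44 without m3 and f2). No gene of either list passed with all libraries, and Dusp10, Serpina3h and Serpina3i passed without m3 and f2.

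Growth arrest and survival genes of the Gadd45 family differed from each other. Gadd45a, a stress sensor that acts in DNA repair, was at 14.9, 18.7, 11.6 and 14.3 CPM in vehicle and at 32.2, 22.6 and 37.2 CPM in leptin beads (log2 1.04, SE 0.167, adjusted p = 0.0624). Gadd45g, the family member induced by cytokines, was at 33.6, 39, 28.7 and 47.5 CPM against 77.9, 55.8 and 106 CPM (log2 1.10, SE 0.208, adjusted p = 0.192). Gadd45b was at 5.45 to 8.06 CPM and 6.17 to 6.80 CPM with full overlap (log2 -0.08). Hif1a, the oxygen-regulated factor, was at 81.6 to 94.9 CPM against 103 to 118 CPM without overlap (log2 0.32). Bcl3, a nuclear cofactor of NF-kB, overlapped at 2.54 to 3.50 and 2.85 to 4.27 CPM. Of the 29 genes of growth and survival that STAT3 can act on none passed with all libraries, and the median was 0.04. Gadd45a and Gadd45g passed without m3 and f2. Nfkbia, which codes for the NF-kB inhibitor IkBa, was at 20.4 to 29.8 CPM in vehicle and 15.6 to 21.2 CPM in leptin beads (log2 -0.43). Gadd45a shares exon bases with a gene on the other strand.

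The 21 genes next in p with at least 1 CPM and no overlap between arms comprised 17 that were higher and 4 that were lower with leptin; absence of overlap was a condition for naming them, and it held for 1483 of all genes tested (8.14%). None of the 21 passed with all libraries. Trim62, a ubiquitin ligase gene, was at 42.3, 37.8, 37.1 and 40.1 CPM in vehicle and at 68.7, 52.5 and 70.2 CPM in leptin beads (log2 0.69, SE 0.122, adjusted p = 0.106). Bhlhe40, a repressor that feeds back on the circadian clock, was at 110 to 130 CPM against 169, 159 and 205 CPM (log2 0.55, adjusted p = 0.106). Its relative Bhlhe41 was at 72.7 to 89.6 CPM against 94.6 to 116 CPM (log2 0.37). Rgs4, a regulator that shortens signals of G protein-coupled receptors, was at 402 to 520 CPM against 722, 564 and 718 CPM (log2 0.57). Id2, an inhibitor of bHLH transcription factors, was at 40.2 to 44 CPM against 69.8, 47.5 and 78.3 CPM (log2 0.63). Ikzf4, a zinc finger factor of the Ikaros family, was at 18.2 to 20.6 CPM against 24.8 to 33.4 CPM (log2 0.64).

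Genes with a role at the cell surface or in signalling were also among the 21. Prokr2, a receptor of prokineticins, peptides that reduce feeding, was at 5.07, 6.82, 5.75 and 4.76 CPM in vehicle and at 12.2, 6.95 and 13 CPM in leptin beads (log2 0.93, adjusted p = 0.571). It passed without m3 and f2 (log2 1.27, adjusted p = 0.0226). Leptin f2 was barely above vehicle m3 there. Spred1, an inhibitor of RAS-MAPK signalling, was at 170 to 206 CPM against 224 to 278 CPM (log2 0.44). Car13, a cytosolic carbonic anhydrase, was at 0.298 to 0.7 CPM against 2.18, 1.09 and 1.73 CPM (log2 1.68, SE 0.384). Palmd, Prr15, Rbm12 and the unnamed transcript Gm15496 completed the higher genes, with log2 fold changes of 0.65, 1.10, 0.51 and 0.96. Gpr6, a constitutively active receptor that raises cAMP, led the lower genes. It was at 5.91, 6.30, 5.54 and 5.40 CPM in vehicle and at 2.65, 2.92 and 1.88 CPM in leptin beads (log2 -1.22, SE 0.2, adjusted p = 0.0687). Bambi, a decoy receptor of TGF-beta signalling, was at 6.39 to 8.27 CPM against 3.46 to 4.78 CPM (log2 -0.75). H2-T23, a nonclassical MHC class I gene, was at 4.90 to 6.03 CPM against 2.92 to 3.62 CPM (log2 -0.75), and AI467606 at 11.1 to 15 CPM against 7.94 to 8.44 CPM (log2 -0.65).

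Leptin library f2 was closest to vehicle in the higher genes of the leading 25. In each of the 21 higher genes among the 25 just described, f2 was the lowest of the 3 leptin libraries; over the 732 genes in which all leptin libraries lay above all vehicle libraries, f2 was the lowest in 44.7%, f4 in 36.2% and m24 in 19.1%. Over the vehicle mean, the median log2 ratio of the 21 genes was 1.02 in m24, 0.46 in f2 and 1.12 in f4. The rise in f2 was 17.1% to 57.7% of the mean rise in m24 and f4, with a median of 39.7%. Socs3, for example, stood 2.27, 1.37 and 2.56 above the vehicle mean on the log2 scale in m24, f2 and f4, and Etv6 1.57, 0.97 and 1.62. Among the 4 lower genes, f2 was closest to vehicle in Gpr6 and Bambi and farthest from it in AI467606 and H2-T23. The same library had 538 CPM of Gh, the lowest Lepr level of the 7 (6.51 CPM) and the highest glial marker mean of the leptin arm. The part of these in its values was not tested.

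Without vehicle m3 and leptin f2, 34 of 18035 genes passed (0.189%), 30 higher and 4 lower, and the 4 genes called with all libraries were among them. Their log2 fold changes were then 2.21 for Arid5a, 1.61 for Etv6, 2.42 for Socs3 and 2.36 for Atf3. The glial marker mean was 4.81, 5.29 and 4.60 in the vehicle libraries kept and 4.11 and 4.29 in the leptin libraries kept. Its arms thus overlapped with all 7 libraries but not in this fit, and its part in these calls was not tested. Of the 21 next genes 13 passed, among them Gadd45a (1.35, adjusted p = 0.00071), Gadd45g (1.32, adjusted p = 0.0174), Socs2 (1.03, adjusted p = 0.0129), Cish (1.11, adjusted p = 0.0314) and Jun (1.04, adjusted p = 0.0225). The other 8 were Trim62 (0.80), Bhlhe40 (0.64), Rgs4 (0.76), Id2 (0.79), Ikzf4 (0.77), Prr15 (adjusted p = 0.0127), Prokr2 (1.27, adjusted p = 0.0226) and Gm15496 (1.09). Crem passed too (0.76, adjusted p = 0.0484). By the smallest p, 15 further genes were named that passed in this fit and not with all 7 libraries, where the arms of all but Smpdl3b overlapped. In the 11 of them that were higher, m3 was the highest vehicle library and f2 the lowest leptin library in all 11; the way they were picked favours this.

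These 11 included 3 serpin genes and Asb4, the 1 gene of them on the list of LepRb neuron markers. Serpina3h, annotated as a transcribed pseudogene, was at 2.27, 12.1, 1.60 and 2.91 CPM in vehicle and at 9.65, 5.77 and 16.5 CPM in leptin beads (log2 2.53 without m3 and f2, adjusted p = 0.00535). Serpina3i was at 2.12, 4.36, 2.28 and 2.27 CPM against 7.07, 3.38 and 6.81 CPM (1.64, adjusted p = 0.0127). Serpina3e-ps, also annotated as a pseudogene, was at 0.0292 to 0.894 CPM against 0.372 to 1.17 CPM. Serpina3 genes are near-identical paralogs, so reads may be split among them. Asb4, an ankyrin and SOCS box gene typical of arcuate LepRb neurons, was at 217, 333, 170 and 236 CPM against 373, 220 and 342 CPM (0.78, adjusted p = 0.03). Dusp10, a phosphatase of the kinases JNK and p38, was at 9.28, 15.3, 8.69 and 9.34 CPM against 16, 13.2 and 20.4 CPM (0.99, adjusted p = 0.0174). Rgs2, a relative of Rgs4, was at 237, 411, 199 and 261 CPM against 435, 247 and 394 CPM (0.83, adjusted p = 0.0265). Rnd3, Cd24a, Usp27x, Prkar2b and Dgkk had values of 0.80, 0.89, 0.70, 0.69 and 0.67. The lower genes were H2-K1 (-1.86), Smpdl3b (-1.51), Bcan (-1.11) and Arrdc2 (-0.96). Timp1, a metalloproteinase inhibitor, did not pass in either analysis (log2 0.82 with all libraries, 1.13 without m3 and f2).

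**Figure D3:**
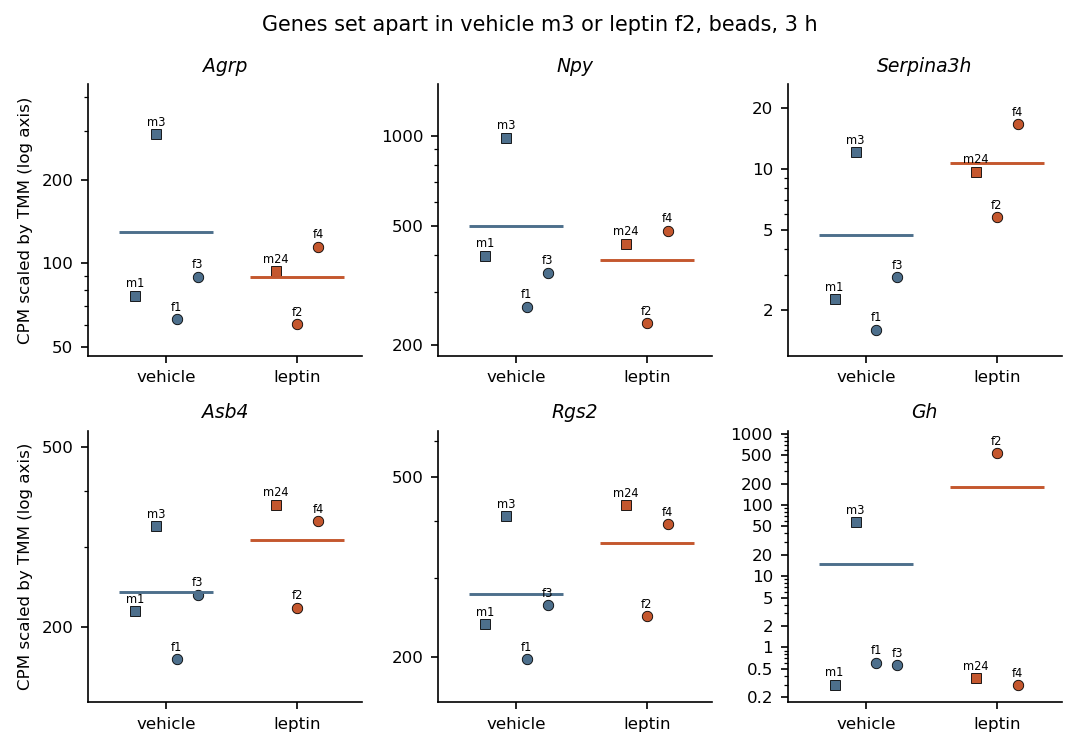
CPM scaled by TMM (y axis, log scale) of 6 genes in the 7 bead libraries at 3 h, squares for m, circles for f, with horizontal lines at arm means. Vehicle m3 lies above the other vehicle libraries in all 6 genes, and leptin f2 lies below the other leptin libraries in all but Gh, where it is at 538 CPM.

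Genes of peptides that control feeding did not pass, and most had negative log2 fold changes. Agrp was at 76.6, 292, 62.9 and 89.5 CPM in vehicle and at 93.9, 60.2 and 115 CPM in leptin beads (log2 -0.54, SE 0.499), and the sign changed to 0.44 without m3 and f2. Npy was at 397, 985, 268 and 348 CPM against 436, 237 and 481 CPM (log2 -0.38), and 0.43 without those libraries. Pomc was at 1073, 717, 825 and 743 CPM against 785, 796 and 656 CPM (log2 -0.17, 95% interval -0.58 to 0.23, and -0.29 without m3 and f2). It is also on the list of pituitary genes. Depleted RNA held 74.9 CPM of Pomc in m3 and 478 CPM in f2, against 17.4 to 35.6 CPM in the other lysates. The part of pituitary Pomc in the bead values was not tested. Cartpt was at 484 to 791 CPM in vehicle beads against 509 to 806 CPM in leptin beads (log2 -0.14, and 0.03 without m3 and f2). Of the 25 neuropeptide genes tested 23 had a negative log2 fold change, as did 9529 of all 18212 genes tested. In 5 of the 25 all leptin libraries lay below all vehicle libraries, against 4.12% of all genes, and the median of the 25 was -0.34. In the depleted RNA of the same lysates their median was -0.35. Trh, the thyrotropin-releasing hormone gene, was at 57, 49.2, 49.4 and 48.1 CPM in vehicle and 32, 34.9 and 36.8 CPM in leptin beads (log2 -0.56, SE 0.144, adjusted p = 0.656), with -0.46 in the depleted RNA. Pnoc, which codes for nociceptin, was at 26.6 to 38.4 CPM against 20.5 to 24.8 CPM (log2 -0.45). Penk and Pdyn, opioid precursors, had values of -0.39 and -0.34, and Gal, which codes for galanin, -0.34.

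Genes of receptors, peptide processing and the endoplasmic reticulum also had negative medians, in beads and in the depleted RNA. The depleted medians were -0.25 for the feeding peptide receptors, -0.19 for the secretory pathway genes and -0.19 for the ER genes. The values that follow are those of beads. Of 26 receptors of feeding peptides 21 were negative, with a median of -0.22 and none past the threshold with all libraries; Prokr2 passed without m3 and f2, as the 1 gene of the list. Glp1r, the receptor of the satiety hormone GLP-1, was at 22 to 29.7 CPM in vehicle and 14.5 to 19.5 CPM in leptin beads (log2 -0.50, adjusted p = 0.656). Cckbr, a cholecystokinin receptor, was at 9.09 to 11.9 CPM against 5.96 to 8.62 CPM (log2 -0.58), and Sstr1, a somatostatin receptor, at 16.2 to 18.4 CPM against 11 to 14.5 CPM (log2 -0.43). Of 16 secretory pathway genes 14 were negative (median -0.22), with Ptprn, a dense core vesicle protein, at -0.39 and the exocytosis factor Cadps2 at 0.35. All 20 ER chaperone and unfolded protein genes tested were negative, with a median of -0.20 and none past the threshold. Below an unadjusted p of 0.05 were 3 (15%), against 7.48% of all genes tested. Pdia6, a disulfide isomerase, was at 94.3 to 109 CPM in vehicle and 74.6 to 87.1 CPM in leptin beads (log2 -0.36). Creld2 was at 14.3 to 16.4 against 11.5 to 12.7 CPM, Calr at 208 to 256 against 182 to 210 CPM, and Syvn1 at 33.3 to 50.4 against 27.5 to 38.9 CPM. Of 28 synaptic receptor and transmitter genes 21 were negative (median -0.11). Slc32a1, the vesicular GABA transporter, was at 118 to 139 CPM against 79.6 to 114 CPM (log2 -0.49). In the integrated stress response list, which holds Atf4 target genes such as Asns, 6 of 19 genes were positive and the median was -0.08. Asns was at 144 to 157 CPM against 173 to 186 CPM (log2 0.26), and Ppp1r15a overlapped (log2 0.36).

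**Figure D4:**
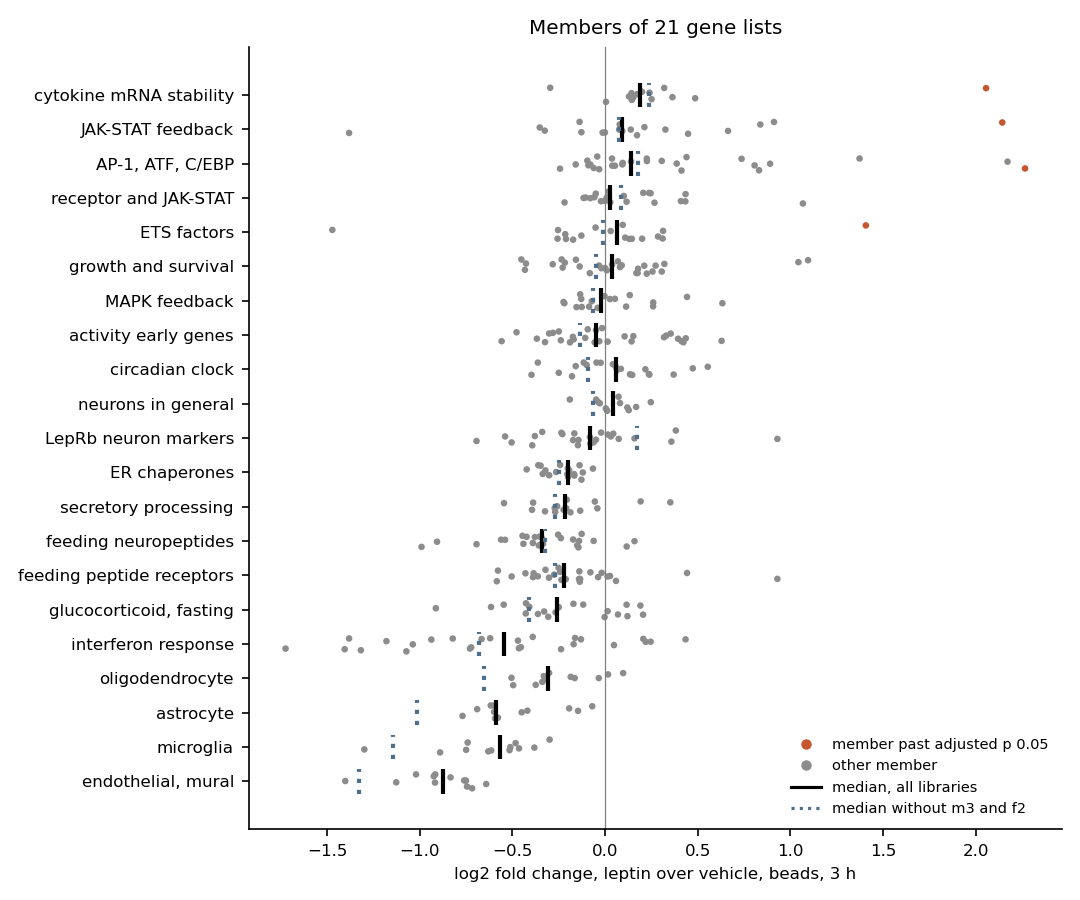
Each point is a tested gene of 1 of 21 gene lists (rows), placed by its log2 fold change (x axis, leptin over vehicle, beads, 3 h); orange points passed the threshold, black bars are medians with all libraries and dotted blue bars medians without m3 and f2. The 4 orange points lie in the top 5 rows, and the medians of glial, microglial and vascular lists move further from 0 without m3 and f2, as in microglia from -0.56 to -1.15.

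Antigen presentation and interferon genes had negative medians in both fractions, and none passed with all libraries. Of 26 such genes 21 were negative in beads, and the median was -0.55, against -0.56 in the depleted RNA. In beads 10 negative and 1 positive gene (42.3% together) had an unadjusted p under 0.05, against 7.48% of all genes tested. The list summed to 400, 249, 245 and 226 CPM in vehicle m1, m3, f1 and f3. In leptin m24, f2 and f4 the sums were 235, 217 and 228 CPM, so vehicle m1 stood apart and f3 overlapped with the leptin arm. Gbp2, an interferon-induced GTPase, was at 2.60, 1.23, 1.78 and 0.994 CPM in vehicle and 0.536, 0.744 and 0.589 CPM in leptin beads (log2 -1.41, SE 0.355, adjusted p = 0.656). H2-D1 was at 34.2 to 55.9 CPM against 25.2 to 26.7 CPM (log2 -0.67), and Tap1, which loads peptides for MHC class I, at 2.53 to 6.77 CPM against 1.71 to 2.42 CPM (log2 -0.94). H2-K1 fell by 1.86 on the log2 scale without m3 and f2, where it passed (adjusted p = 0.0225), and was at 7.45 to 21.5 against 4.12 to 9.52 CPM. Vehicle m1 held the highest value of Gbp2, H2-D1, Tap1 and H2-K1. Microglial markers lay the same way: all 12 were negative (median -0.56), their summed level was 40.7 to 91.9 CPM in vehicle and 30.7 to 57.5 CPM in leptin beads, and Tyrobp, a microglial adaptor, was at 1.70 to 2.57 against 0.737 to 0.837 CPM. Endothelial and mural markers were also all negative (12 of 12, median -0.88), with sums of 55.9 to 208 and 58.3 to 80.8 CPM, and Ly6c1 at 2.68 to 10.4 against 2.08 to 2.61 CPM. Astrocyte markers summed to 890 to 1588 CPM in vehicle and 835 to 1241 CPM in leptin beads (12 of 12 negative, median -0.59), and oligodendrocyte markers to 1805 to 3460 and 1642 to 2359 CPM. Slc1a3, a glial glutamate transporter, was at 37.9 to 111 against 30.3 to 64.8 CPM, and Mbp, a myelin protein, at 555 to 1255 against 481 to 719 CPM. General neuronal markers had a median of 0.04 and LepRb neuron markers -0.08. Without m3 and f2 these were -0.06 and 0.17, and the LepRb neuron markers Asb4 and Prokr2 passed. Of 6 oligodendrocyte precursor markers all were negative (median -0.33), and of 12 ependymal and tanycyte markers 11 (median -0.43). Choroid plexus and red blood cell markers, 5 tested of each, both had a median of -0.09. Of 9 pituitary genes tested 6 were positive (median 0.74, and -0.15 without m3 and f2). The 13 genes listed summed to 1015 to 1399 CPM in vehicle and 866 to 2347 CPM in leptin beads. In these sums Pomc, also a gene of LepRb neurons, held 717 to 1073 and 656 to 796 CPM. Chga held 200 to 284 and 174 to 204 CPM, and Gh and Prl stood out in m3 and f2 only. No tested marker of astrocytes, oligodendrocytes, microglia or vessels was at 0 in any of the 7 libraries. In the depleted RNA the medians were -0.58 for microglial, -0.28 for endothelial and mural, and -0.24 for astrocyte markers. The part of other cell types in the lower genes was not tested.

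Fasting and clock genes were read because food was withdrawn from all mice. Of 20 glucocorticoid and fasting genes 14 were negative, with a median of -0.26 and none past the threshold. Angptl4, a lipase inhibitor raised in fasting, was at 2.09 to 3.02 CPM in vehicle and at 0.938, 1.74 and 1.18 CPM in leptin beads (log2 -0.91, unadjusted p = 0.0039). Pdk4, which spares glucose in fasting, was at 5.28 to 10.8 against 3.62 to 6.05 CPM (log2 -0.62). Of 21 clock genes 12 were positive (median 0.06), and Bhlhe40 passed without m3 and f2. Nfil3, a repressor of the clock output, was at 15.4 to 19.9 against 19.3 to 26.9 CPM (log2 0.47).

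The comparison with the depleted RNA of the same lysates asked whether the response was larger on tagged ribosomes. It was for Arid5a and Etv6. Arid5a in the depleted RNA was at 15.7 ± 0.763 CPM with vehicle (SD, n = 4) and 17.8 ± 1.36 CPM with leptin (n = 3), a log2 fold change of 0.16 (SE 0.0764), and the effect in beads exceeded it by 1.84 (SE 0.222, edgeR with the lysate as a block, adjusted p = 0.00742). Etv6 was at 18.3 ± 1.18 and 21.8 ± 0.301 CPM there, and the bead effect exceeded its 0.24 by 1.14 (SE 0.145, adjusted p = 0.00783). These are 2 of 19682 genes tested (0.0102%), and 619 had an unadjusted p under 0.05. In the depleted RNA alone edgeR called 0 of 19115 genes (0%), with 1813 at an unadjusted p under 0.05. Fitted on the 14 libraries of 3 h alone, neither difference passed (adjusted p = 0.231 for both).

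Socs3 and Atf3 were higher with leptin in the depleted RNA as well, without passing. Socs3 was at 2.91 ± 0.63 and 5.72 ± 1.10 CPM there (log2 0.97, SE 0.174, adjusted p = 0.2), and the difference between fractions was 1.11 (SE 0.214, adjusted p = 0.35). Atf3 was at 1.36 ± 0.306 and 2.18 ± 0.333 CPM (log2 0.68, adjusted p = 0.374), with a difference of 1.54 (SE 0.305, adjusted p = 0.35). Gadd45g was at 30 ± 3.24 and 28.5 ± 2.81 CPM in the depleted RNA, and the difference was 1.15 (SE 0.186, adjusted p = 0.0965). In 24 of the 25 leading genes the bead effect was larger in size than the depleted effect; the exception was H2-T23 (-0.75 against -0.96), and the genes were chosen by their effect in beads. Levels without leptin also differed between the lead genes. In vehicle lysates, beads held 0.594 times the depleted level of Arid5a and 0.796 times that of Etv6, both lower (adjusted p = 0.000532 and 0.00936), but 3.43 times that of Socs3 and 4.66 times that of Atf3 (adjusted p = 2.27e-07 and 6.49e-07). Among the 25 leading genes, 12 were enriched in vehicle beads, 4 were lower there, and 9 passed in neither direction. Of all 19682 genes in that comparison 52.8% passed, 5558 higher and 4828 lower.

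**Figure D5:**
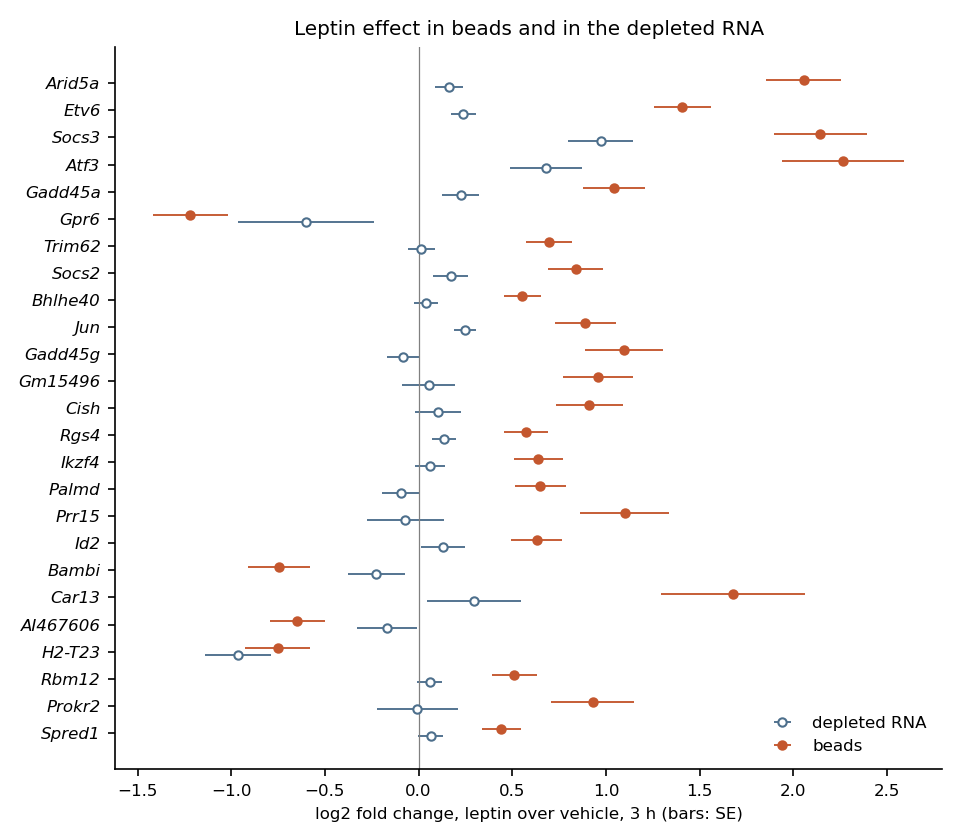
Log2 fold change of leptin over vehicle at 3 h (x axis) with its SE in beads (filled) and in the depleted RNA of the same lysates (open) for the 4 genes past the threshold and the 21 next genes. Arid5a and Etv6 have bead values of 2.06 and 1.41 and depleted values of 0.16 and 0.24, while Socs3 and Atf3 are above 0 in both.

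At 10 h most of the leading genes had smaller leptin effects, but no difference between times passed. The mean of the wild-type and ob/ob effects at 10 h was 0.77 for Arid5a, 0.42 for Etv6, 2.29 for Socs3 and 1.67 for Atf3, on the log2 scale. Relative to 3 h these differ by -1.29 (SE 0.302, unadjusted p = 0.000708), -0.99 (SE 0.227, unadjusted p = 0.000602), 0.14 (SE 0.383) and -0.59 (SE 0.506). After adjustment all 4 were at or above 0.792. Id2 was 0.63 at 3 h and -0.27 at 10 h (unadjusted p = 0.000611 for the difference). Of the 21 genes that were higher at 3 h, 20 had a smaller value at 10 h; Socs3 is the exception, and selection at 3 h favours this order. Other genes were larger at 10 h: Timp1 was 0.82 at 3 h and 3.25 at 10 h, Stat3 0.43 and 1.11, and Serpina3n -0.03 and 1.67. Over all genes edgeR called 0 of 18212 (0%) for the difference, with 957 at an unadjusted p under 0.05, limma voom 0 and DESeq2 6. Time was sequenced in separate runs, the 10 h effect mixes genotypes and rests on 1 wild-type vehicle library and 1 ob/ob leptin library, so time, genotype and run cannot be told apart.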

How the data were processed

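The deposited tables hold raw read counts per Ensembl gene for each library, which the authors left unnormalized. Reads were aligned with STAR 2.7.6a to GRCm38.p6, per the submitters' processing notes, but the sources used here do not name the read counter, its handling of strand or the gene annotation. Genes that reached 10 counts in 3 or more libraries were fitted with edgeR 4.0.16 (quasi-likelihood test, TMM, Benjamini-Hochberg, threshold 0.05) over all 14 bead libraries with 1 term per group, which left 8 residual degrees of freedom. The comparison of fractions used all 28 libraries with the lysate as a block. Bead and depleted libraries of 1 lysate deviated together from their group means (r = 0.269 to 0.471, each of the 7 lysates best with its own partner). DESeq2 1.42.0, limma 3.58.1 (voom), other scalings, filters and left-out libraries were alternatives.

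Named genes were all past the threshold, the next by p to a total of 25 with at least 1 CPM and no overlap of arms, a panel, the members of smallest p of each of 30 gene lists (not all are printed), and 15 that passed without m3 and f2. The members and lists were chosen with earlier results of these data known. Of 502 list genes 486 passed the filter on low counts. The 5 tested sex-linked genes, a check of the titles, had a median log2 fold change of -0.27. Scripts were tested on simulated data.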

Additional observations from a re-analysis of the deposited data

Results flagged for a closer look

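Among the 106 genes looked at, 11 had a vehicle bead library far from the other 3 by Dixon's criterion, and chance alone marks about 5% of such groups. In 8 of the 11 that library was m3, where Agrp was at 291.9 CPM, Serpina3n at 321.3, Gh at 57.5, Dusp10 at 15.3, Serpina3h at 12.1, Prl at 9.80, Serpina3i at 4.36 and Serpina3e-ps at 0.894 CPM. Dusp10, Serpina3h, Serpina3i and Serpina3e-ps pass the test without both m3 and f2, which is how some of them came to be named, and do not pass without m3 alone. The other flags were Fos in f3 (37.1 CPM), Trh in m1 (57 CPM) and Tyrobp in f1 (2.57 CPM). Over all 14693 genes of at least 1 CPM, 774 (5.27%) had such a vehicle library. It was f1 in most of them, far above in 197 and far below in 250 genes, against 139 and 58 for m3.

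The effect of leptin differed between beads and depleted RNA of the same lysates for Arid5a (by 1.84 on the log2 scale) and Etv6 (by 1.14), by the edgeR test of the difference itself. Both were higher with leptin in 3 of 3 bead libraries than in any vehicle bead library.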

How the results depend on the processing

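The count of 4 genes in beads at 3 h was 22 with DESeq2, 191 without a filter on low counts (56 higher, 135 lower), 31 with the glial marker mean as a covariate, 34 without m3 and f2, and 3 to 17 when 1 library was left out, with 17 without f2. Limma voom, DESeq2's size factors and the 7 libraries alone gave 4, and library totals 3. Etv6 and Socs3 passed in all 17 alternatives, Arid5a in 16 (adjusted p = 0.0802 with the glial covariate) and Atf3 in 9. The 2 genes that differed between fractions became 7 with DESeq2, 24 without the filter, 0 with the 14 libraries of 3 h alone, 79 without m3 and f2, and 0 to 8 when 1 library was left out (0 without m24, 1 without m1 or f4, 8 without f2). Without the replicate block for lysates, which pairs the fractions, 2 genes differed between fractions and 9738 between vehicle beads and depleted RNA. The difference between times gave 6 genes with DESeq2 in place of 0.

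Signs turned for genes that did not pass with all libraries. Without m3 and f2 the log2 fold change was 0.185 for Lepr, 0.44 for Serpina3n, 0.0325 for Cartpt, 0.445 for Agrp, 0.435 for Npy, -0.562 for Gh and -0.00813 for Prl. When 1 library was left out, it ran from -0.248 (without m24) to 0.108 (without f2) for Lepr, from -0.17 (without m24) to 0.257 (without m3) for Serpina3n, where it was 0.151 without f2, from -0.767 (without f1) to 0.225 (without m3) for Agrp, and from -0.584 (without f1) to 0.181 (without m3) for Npy. It ran from -0.391 (without m24) to 0.000703 (without f4) for Cartpt, from -0.179 (without f1) to 0.00991 (without m1) for Gadd45b, from -5.43 (without f2) to 8.50 (without m3) for Gh, and from -2.62 (without f2) to 9.15 (without m3) for Prl. It was 0.0727 for Serpina3n with the letter of the title as a term, and -0.0528 for Dgkk and -0.101 for Cd24a with the glial covariate. The 10 h minus 3 h difference of Socs3 was -0.691 with wild-type mice alone, -0.143 without m3 and f2, and -0.132 (without f2) to 0.363 (without f4) when 1 library was left out. The cause of these changes was not tested. With 3 and 4 lysates, small effects at low counts were not detectable.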
